A study of Mus musculus with 9 samples.

Results

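The 10 genes described here are 9 cathepsins (Ctsa, Ctsb, Ctsc, Ctsd, Ctsh, Ctsk, Ctsl, Ctss and Ctsz) and Cst3, which encodes the inhibitor cystatin C. They were taken by Entrez identifier from the 18755 genes of the deposited count table, and were chosen with earlier results of these data known. All 10 passed the filter on low counts and are among the 13966 genes tested. RNA had been sequenced from primary tumors of the murine breast cancer line 4T1, grown in the mammary fat pad of female BALB/c mice that were 6 to 10 weeks old at injection. From day 15 onwards, 6 mice received the focal adhesion kinase inhibitor BI 853520 (BI below) by mouth at 50 mg/kg daily for 5 days, and 3 mice received the carrier alone, 0.5% Natrosol. Each tumor gave 1 library (vehicle replicates 1 to 3, BI replicates 4 to 9), from a piece of a whole tumor in which 4T1 cells, stroma and immune cells of an immunocompetent host are mixed. The study kept for analysis the tumors whose RNA quality met its requirement.

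Cathepsins are proteases that work mainly in lysosomes, the acidic compartments in which cells degrade proteins. Most are cysteine proteases made as inactive precursors, carried to the lysosome by mannose 6-phosphate receptors and held in check outside it by cystatins. Macrophages and other antigen-presenting cells are rich in them, and several cathepsins are also made by carcinoma cells and fibroblasts. Within the family, cathepsin S is known for trimming the invariant chain of MHC class II, cathepsin C for activating granule serine proteases, and cathepsin K for degrading collagen in osteoclasts.

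Total counts ranged from 16931607 to 33850245 per tumor, so that 3 counts equalled 0.0886 to 0.177 CPM (counts scaled to library size, with TMM factors), far under the level of each member. This floor covers counting error only. In a bulk tumor sample, fewer cells of a type and less RNA per cell cannot be told apart. The median log2 fold change over all genes tested was -0.00, with quartiles of -0.17 and 0.21. Some marker lists of other cell types differed between the groups as well. Their counts are to be read beside those of all genes in the edgeR test described below, 14.6% higher and 14.1% lower. The summed CPM of 15 macrophage markers was 3634 to 4504 in vehicle and 6272 to 8225 in BI tumors, with 13 of 15 genes higher and 1 lower (Cd14). The 12 T and NK cell markers summed to 78.9 to 87.3 and 151 to 204 CPM with 10 higher, and the 10 neutrophil markers to 552 to 770 and 236 to 392 CPM with 4 lower. The 10 carcinoma cell markers summed to 964 to 1188 CPM in vehicle and 758 to 965 CPM in BI tumors. Of these 10, 0 were higher and 2 lower, the latter near the share of all genes. Those 2, Krt8 and Krt18, make up most of that sum, and 6 of the 10 had positive log2 fold changes, with a median of 0.13 and a mean log2 CPM per tumor of 2.10 to 2.61 in vehicle and 2.25 to 3.46 in BI tumors. No marker of any list was at 0 in all tumors. The part of these shifts in the values below was not tested.

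By sequence, the members' promoters are not alike. RefSeq promoters of the GRCm38.p6 build, each spanning 250 bases before and 50 bases from the transcription start, were found for 8 of the 10 members (9 promoters, since Ctsa has more than 1 start). Ctsb and Ctsh had no entry. The 4 promoters below were picked with the results described further on in view. Each pair shares a motif that few promoters hold, and the pairs differ in how far their transcripts moved. With 2 member promoters per motif, whether a motif bears on that difference was not tested. In the first pair, capitals mark TCACGTGA, an E-box of the form read by the TFEB family, whose members control lysosomal genes. In the second pair, capitals mark GAGGAAGT, a core recognised by ETS factors such as PU.1 of myeloid cells, which reads ACTTCCTC on the strand printed.

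Ctsa (chr2:164833523-164833822, plus strand): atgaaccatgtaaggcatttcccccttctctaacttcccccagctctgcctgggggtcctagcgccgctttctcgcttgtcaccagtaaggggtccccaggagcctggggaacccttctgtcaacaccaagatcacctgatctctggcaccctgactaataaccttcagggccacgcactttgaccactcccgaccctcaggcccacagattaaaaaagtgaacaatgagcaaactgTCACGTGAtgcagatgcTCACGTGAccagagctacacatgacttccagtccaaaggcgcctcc
Ctsd (chr7:142387778-142388077, minus strand): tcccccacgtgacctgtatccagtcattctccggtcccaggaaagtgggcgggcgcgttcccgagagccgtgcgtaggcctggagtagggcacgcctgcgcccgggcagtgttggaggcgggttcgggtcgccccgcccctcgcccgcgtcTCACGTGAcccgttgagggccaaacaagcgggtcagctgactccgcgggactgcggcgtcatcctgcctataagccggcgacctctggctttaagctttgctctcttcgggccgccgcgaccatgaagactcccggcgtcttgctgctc
Ctss (chr3:95526536-95526835, plus strand): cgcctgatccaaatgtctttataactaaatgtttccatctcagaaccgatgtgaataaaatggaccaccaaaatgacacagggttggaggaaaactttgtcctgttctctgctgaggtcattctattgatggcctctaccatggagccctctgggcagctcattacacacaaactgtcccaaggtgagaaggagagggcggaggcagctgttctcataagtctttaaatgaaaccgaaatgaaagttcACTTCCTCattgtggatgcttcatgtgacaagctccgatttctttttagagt
Ctsc (chr7:88277835-88278134, plus strand): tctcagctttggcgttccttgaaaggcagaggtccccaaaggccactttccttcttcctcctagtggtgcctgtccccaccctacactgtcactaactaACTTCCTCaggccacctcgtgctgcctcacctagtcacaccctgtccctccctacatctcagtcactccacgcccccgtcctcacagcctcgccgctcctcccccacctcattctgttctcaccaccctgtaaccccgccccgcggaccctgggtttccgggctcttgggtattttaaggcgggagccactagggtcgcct

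Counting the first transcribed base as 0, TCACGTGA lies at -13 to -6 and at 4 to 11 in the Ctsa promoter printed above. In Ctsd it lies at -99 to -92. No motif looked for was found in the other Ctsa promoter, so matches given for Ctsa are those of the printed promoter. Among 32851 promoters of this length, 0.974% hold it on either strand. GAGGAAGT spans the start of Ctss, from -2 to 5, lies at -151 to -144 in Ctsc, and occurs in 3.20% of all promoters. Ctss alone among the members holds GAAANNGAA, an interferon response type element, at -21 to -13 (8.56% of all promoters). The shorter E-box forms contained in TCACGTGA were also searched: CACGTG was found in Ctsa, Ctsd and Ctsl (7.15% of all promoters) and TCACGTG in Ctsa and Ctsd (3.77%). Of the other motifs looked for on both strands, GGGCGG was in Cst3, Ctsz, Ctss, Ctsc and Ctsd (35.7% of all), TTCNNNGAA in Ctsc (8.30%), CCAAT in Ctsz (37.4%) and TATAAA in Ctss (13.6%). TGANTCA (7.81% of all) and TTCCGGAA (0.712%) were in none. The 11 motifs were chosen with these sequences in view, and a match describes letters in a window and not binding.

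The question put to the counts was which members differed between BI and vehicle tumors. With edgeR's quasi-likelihood test, and p values adjusted after Benjamini and Hochberg over all genes tested, 7 of the 10 members were higher in BI tumors, where 14.6% of all genes tested were. None was lower (0 of 10), where 14.1% of all genes were. Because the members were chosen with earlier results of these data known, these counts and shares are a description. Ctss, Ctsc, Ctsh, Cst3, Ctsb, Ctsl and Ctsa were the 7, and Ctsd, Ctsz and Ctsk did not pass. All 10 fitted log2 fold changes were positive, from 0.16 to 0.91, with a median of 0.54. Under the cutoffs of the study (unadjusted p of at most 0.05 and 1.5-fold), 3 members were higher, Ctss, Ctsc and Ctsh, against 9.59% of all genes, and 0 were lower, against 3.57%. In 7 members every BI tumor lay above every vehicle tumor (14.1% of all genes did so), and in 0 every BI tumor lay below (14.0%). These 7 are also the 7 that passed the test. Without vehicle replicate 1, or without vehicle replicate 3, the number of members higher was 4, because Ctsa, Ctsb and Ctsl no longer passed.

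**Figure D1:**
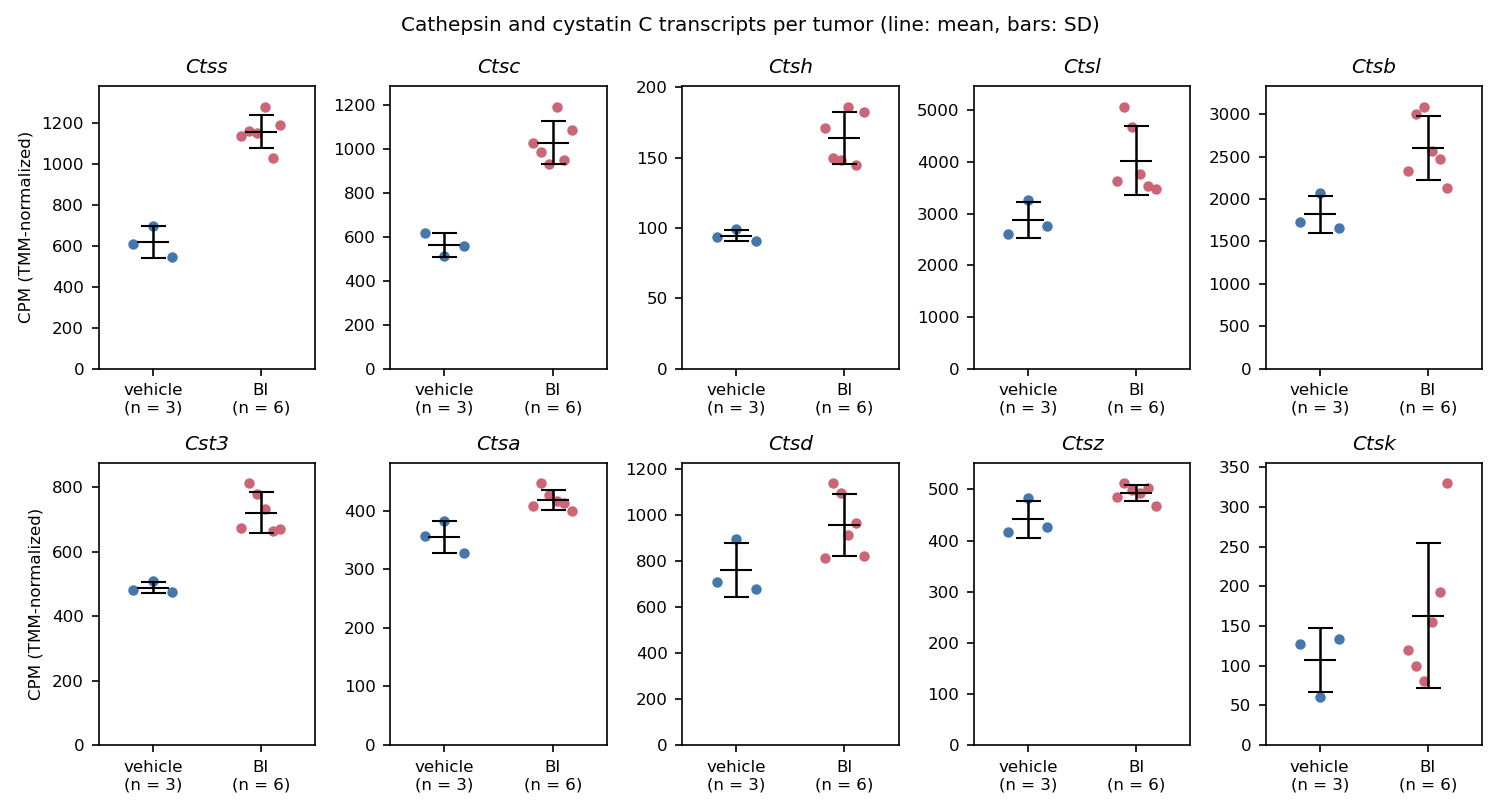
TMM-normalized CPM of each member in every tumor, on axes that start at 0, for 3 vehicle (blue) and 6 BI tumors (red), with mean and SD. In Ctss, Ctsc and Ctsh the groups lie far apart, in Ctsl, Ctsb, Cst3 and Ctsa they are separate but closer, and in Ctsd, Ctsz and Ctsk they overlap, Ctsk with 1 BI tumor at 330 CPM.

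The largest differences were in cathepsins S, C and H. Ctss (Entrez 13040; mm9 chr3:95330708-95360325, plus strand) encodes the elastinolytic cathepsin S of antigen-presenting cells. It measured 609, 699 and 544 CPM in the vehicle tumors, and its lowest, median and highest values in BI tumors were 1029, 1157 and 1280 CPM. The means were 617 ± 78.3 (SD, n = 3) and 1159 ± 81.2 CPM (SD, n = 6), so the groups were separated by far more than their spread. The log2 fold change was 0.91 ± 0.09 (SE), 1.88-fold, with an adjusted p of 5.2e-05 in edgeR's quasi-likelihood test.

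Ctsc (Entrez 13032; mm9 chr7:95426595-95459398, plus strand) encodes cathepsin C, the dipeptidyl peptidase that activates granzymes and mast cell and neutrophil serine proteases. Its vehicle values were 619, 514 and 557 CPM, and its BI values ran from 933 through a median of 1006 to 1192 CPM. All 6 BI tumors were above the highest vehicle tumor, with a log2 fold change of 0.87 ± 0.09 (SE) and an adjusted p, again from edgeR, of 7.6e-05. Ctsh (Entrez 13036; mm9 chr9:89948990-89970927, plus strand) encodes cathepsin H, an aminopeptidase of lysosomes. Its vehicle values of 93.6, 98.9 and 91.0 CPM were the most uniform of the family apart from Cst3, and the BI values ran from 145 through 160 to 186 CPM. Ctsh rose by 0.79 ± 0.09 (SE) on the log2 scale, 1.73-fold, with an adjusted p of 0.000112 in the same test. For these 3 genes the call held when any 1 tumor was left out, with adjusted p values of at most 0.000620 (Ctss), 0.00106 (Ctsc) and 0.00151 (Ctsh) in edgeR's test.

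The cathepsins with the most counts, L and B, rose less. Ctsl (Entrez 13039; mm9 chr13:64464522-64471614, minus strand) encodes the endopeptidase cathepsin L and had 2605, 3270 and 2753 CPM in vehicle tumors. In BI tumors its values ran from 3486 through a median of 3699 to 5067 CPM. Even the lowest BI tumor exceeded the highest vehicle tumor, but the BI tumors spread widely, with an SD of 673 CPM. The log2 fold change was 0.49 ± 0.14 (SE), and the adjusted p of 0.0209 in edgeR's quasi-likelihood test became 0.0981 without vehicle replicate 1 and 0.0859 without vehicle replicate 3.

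Ctsb (Entrez 13030; mm9 chr14:63741302-63764758, plus strand) encodes cathepsin B, which cleaves proteins both inside and at the ends of the chain. It measured 1731, 2072 and 1662 CPM in vehicle tumors and from 2136 through 2522 to 3087 CPM in BI tumors. The gap between the highest vehicle and the lowest BI tumor was narrow for Ctsb. It rose by 0.51 ± 0.13 (SE) on the log2 scale, with an adjusted p of 0.0104 in edgeR's quasi-likelihood test that was 0.0517 without vehicle replicate 1 and 0.0606 without vehicle replicate 3. Exons of Ctsb overlap those of Fdft1 on the other strand, and whether the counting used the strand is not stated in the sources used here.

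Cst3 (Entrez 13010; mm9 chr2:148697458-148701428, minus strand) encodes cystatin C, a secreted inhibitor of cysteine cathepsins. Its vehicle tumors were close together, at 482, 508 and 474 CPM, and its BI tumors ran from 664 through 702 to 812 CPM. With the groups apart and little spread within each, the log2 fold change of 0.56 ± 0.08 (SE), 1.48-fold, had an adjusted p of 0.000406 in edgeR's quasi-likelihood test. That value stayed at or under 0.00429 when any 1 tumor was left out.

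Cathepsins A, D and Z had the smallest differences. Ctsa (Entrez 19025; mm9 chr2:164658373-164666532, plus strand) encodes a serine carboxypeptidase that also protects lysosomal sialidase and beta-galactosidase. It measured 357, 383 and 328 CPM in vehicle tumors and from 400 through 415 to 447 CPM in BI tumors. The groups did not overlap, but the rise was small, at 0.23 ± 0.06 (SE) on the log2 scale, 1.18-fold. Its adjusted p was 0.0178 in edgeR's quasi-likelihood test, 0.0597 without vehicle replicate 1 and 0.102 without vehicle replicate 3. Exons of Ctsa overlap Neurl2 and Pltp on the other strand.

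Ctsd (Entrez 13033; mm9 chr7:149557053-149573943, minus strand) encodes the aspartic protease cathepsin D and had 709, 896 and 680 CPM in vehicle tumors. In BI tumors it ran from 815 through 939 to 1139 CPM, and 4 of 6 lay above all vehicle tumors. Vehicle replicate 2 reached into the BI range. The log2 fold change of 0.33 ± 0.13 (SE) had an adjusted p of 0.0690 in edgeR's quasi-likelihood test. Without vehicle replicate 2 the log2 fold change was 0.46 and the adjusted p 0.0315. Leaving out BI replicate 4 or 9 also brought Ctsd to the passing side (adjusted p 0.0432 and 0.0482 in the same test). It shares exon sequence with 6330512M04Rik on its own strand, so its counts may include reads of that gene.

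Ctsz (Entrez 64138; mm9 chr2:174252994-174264540, minus strand) encodes cathepsin Z, a carboxypeptidase. It measured 416, 483 and 426 CPM in vehicle tumors and from 467 through 496 to 512 CPM in BI tumors, where 5 of 6 lay above all vehicle tumors. The overlap was again due to vehicle replicate 2. The log2 fold change was 0.16 ± 0.06 (SE), the smallest of the 10, with an adjusted p of 0.0780 in edgeR's quasi-likelihood test and 0.0308 without that tumor. Exons of Ctsz overlap Th1l on the other strand.

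A second test of each single member was the two-sided exact permutation test of mean log2 CPM across the 84 ways of dividing 9 tumors into 3 and 6, for which 0.0238 is the smallest p the design allows. Each of the 7 members without overlap had that p of 0.0238 in the exact test, while Ctsz had 0.0476, Ctsd 0.0714 and Ctsk 0.357. Groups without overlap always give 0.0238 in this design, so for those 7 the exact test repeats the lack of overlap. Its p values were not adjusted for the number of members. The labels do not say more of the mice than their treatment. The edgeR p values set the difference between the groups against the variation between these tumors.

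**Figure D2:**
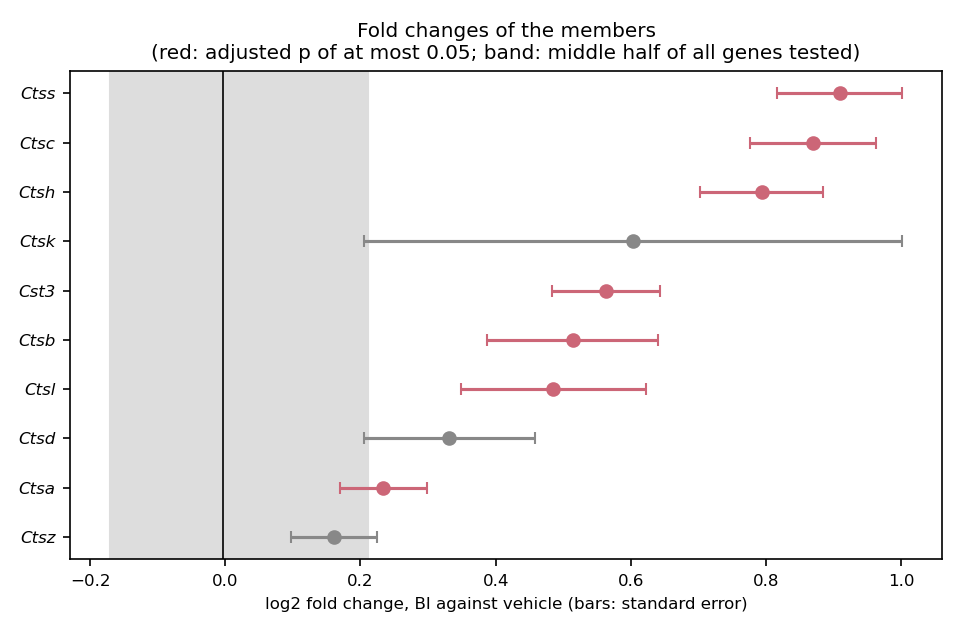
Log2 fold change of BI against vehicle for each member with its standard error (edgeR), red where the adjusted p was at most 0.05, over a grey band from the lower to the upper quartile of all genes tested (-0.17 to 0.21) with their median as a line. Only Ctsz has its point inside the band, and Ctsk has by far the widest error bar.

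Cathepsin K stood apart from the rest by its spread. Ctsk (Entrez 13038; mm9 chr3:95303208-95313284, plus strand) lies next to Ctss on the chromosome. It measured 127, 60.8 and 133 CPM in vehicle tumors, and its values in BI tumors were 120, 99.7, 80.3, 156, 193 and 330 CPM for replicates 4 to 9. Only 3 of 6 BI tumors were above all vehicle tumors, and the coefficient of variation was 37.5% in vehicle and 55.8% in BI tumors. The log2 fold change of 0.60 ± 0.40 (SE) had an adjusted p of 0.280 in edgeR's quasi-likelihood test, and without BI replicate 9 it was 0.27 (adjusted p 0.525). Without vehicle replicate 2 it was 0.32 (adjusted p 0.635).

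Over the 9 tumors, and after each group was centred on its own mean so that the difference between groups was removed, Ctsk followed genes of osteoclasts. Osteoclasts are the bone-resorbing cells of the macrophage lineage in which cathepsin K is best known. Pearson's r of log2 CPM with the mean of 8 osteoclast markers was 0.99, and 0.97 without the 2 tumors farthest from the median. These correlations describe 9 tumors that also share their libraries, and no p was computed for them. Among the single markers r was 0.94 for Acp5 (tartrate-resistant acid phosphatase), 0.97 for Dcstamp and 0.92 for Ocstamp (both needed for fusion of osteoclast precursors), 0.95 for Oscar (an osteoclast receptor) and 0.95 for Nfatc1 (the regulator of osteoclast differentiation). For Itgb3, the beta 3 integrin, it was -0.08.

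Acp5 measured 99.8, 54.0 and 96.5 CPM in vehicle tumors and 55.9, 68.3, 63.0, 103, 141 and 204 CPM in BI replicates 4 to 9. As with Ctsk, vehicle replicate 2 was the lowest of its group and BI replicates 8 and 9 were the highest. Dcstamp, at 2.02, 0.984 and 3.04 CPM in vehicle and at 0.773 to 6.67 CPM in BI tumors, had its lowest value in each group in the same tumors as Ctsk, and its highest as well. As a group the osteoclast markers overlapped between treatments, with summed CPM of 239 to 314 in vehicle and 252 to 467 in BI tumors. In edgeR 2 of 8 passed the test, both higher (Tnfrsf11a and Nfatc1). This count is near the share of all genes tested, of which 14.6% were higher. Other marker lists also followed Ctsk in part. The r with Ctsk was 0.84 for the carcinoma cell markers (0.83 without the 2 tumors farthest from the median), 0.74 for the adipocyte markers (0.47) and 0.69 for the fibroblast markers (0.30), while it was -0.66 for the macrophage markers (-0.81). Whether the r of the osteoclast list differs from these was not tested.

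The members themselves did not all vary alike among tumors of one group. Ctsb, Ctsd, Ctsl and Cst3 varied together, with r between 0.83 and 0.95 in all pairs (n = 9, centred within groups), and BI replicates 5 and 6 were the highest for each of the 4. They are not set apart from Ctsa, whose r with the 4 was 0.74 to 0.86. For Ctsz it was 0.52 to 0.83. Ctsk ran against all of these, with r of -0.88 to Ctsb, -0.81 to Ctsl, -0.76 to Ctsd and -0.73 to each of Cst3, Ctsa and Ctsz. Ctsc and Ctsh correlated at 0.69 and Ctsh and Ctss at 0.66, while Ctsc and Ctss, the pair with the largest fold changes, correlated at 0.25. Ctss, Ctsc and Ctsh all peaked in BI replicate 7.

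**Figure D3:**
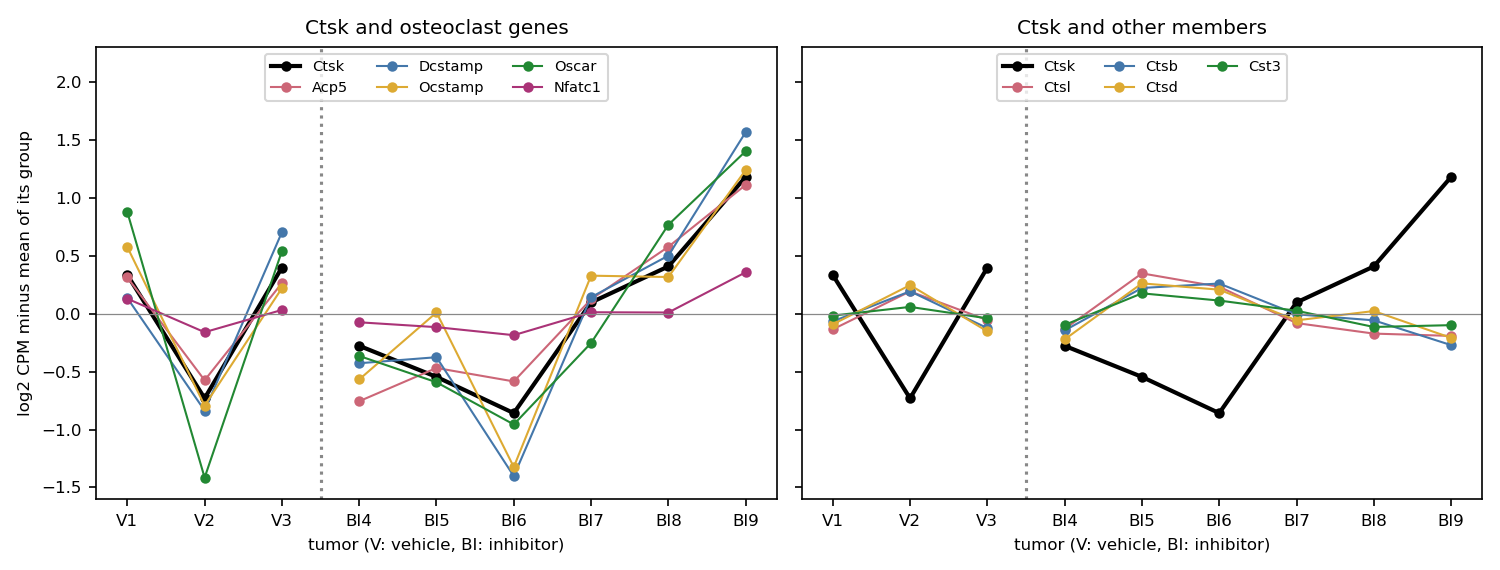
Log2 CPM minus the mean of the tumor's own group, for each vehicle (V) and BI tumor, lines joining the values of 1 gene and carrying no order of tumors. On the left, 5 osteoclast genes share the low of Ctsk in V2 and its high in BI9, and on the right Ctsl, Ctsb, Ctsd and Cst3 run the other way.

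With the same measure, the genes of the table most like each member were looked up among 10359 genes with a mean log2 CPM of at least 3. Nearest to Ctsk were Zbtb18, Atg4a and Mmp9 (r of 0.97 each), of which Mmp9 encodes the gelatinase of osteoclasts and neutrophils. Between the groups Mmp9 went the other way from Ctsk, with means of 517 CPM in vehicle and 319 CPM in BI tumors. Its log2 fold change was -0.70 (adjusted p 0.101 in edgeR's test). Near to Ctsh were Tfe3 (0.97), which encodes a transcription factor of lysosomal genes, and Ass1 (0.95). Ctsc was nearest to Lst1, Cd52 and Elk3 (0.96 each), the first and second of which are leukocyte genes, and Ctss to Ifi202b (0.99), an interferon-inducible gene, Gt(ROSA)26Sor (0.95) and Eogt (0.92). For Ctsb these were Phf1 (0.99), Plppr2 (0.99) and Tusc3 (0.98), for Ctsd Npdc1, Cd151 and Padi4 (0.97 each), and for Ctsl Nisch (0.99), 4930412O13Rik (0.99) and Pttg1ip (0.98). Ctsa had Amdhd2 (0.97), Zfp579 (0.96) and Cdk20 (0.96), Ctsz had Rtkn (0.94), Vat1 (0.94) and Hoxa3 (0.94), and Cst3 had Trp53bp1 (0.97), Gorasp1 (0.97) and Fut8 (0.97). With 10359 candidates and 9 tumors, high values of r are found for every gene.

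Levels were compared between genes only per length, as CPM per kb of the deposited gene length. In vehicle tumors the order from high to low was Ctsl, Cst3, Ctss, Ctsd, Ctsb, Ctsz, Ctsc, Ctsa, Ctsk and Ctsh. Ctsl stood at 1459 ± 177 CPM per kb (SD, n = 3), and over all 9 tumors 10 of the genes tested had a higher level. Cst3 followed at 658 ± 23.6, Ctss at 454 ± 57.6, Ctsd at 390 ± 60.1 and Ctsb at 384 ± 46.3 CPM per kb. The lower end was formed by Ctsz at 317 ± 25.8, Ctsc at 228 ± 21.3, Ctsa at 98.1 ± 7.61, Ctsk at 72.3 ± 27.1 and Ctsh at 58.2 ± 2.48 CPM per kb. Neighbours in this order whose vehicle values overlapped were Ctss and Ctsd, Ctsd and Ctsb, and Ctsk and Ctsh.

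In BI tumors Ctsl remained first at 2043 ± 341 CPM per kb (SD, n = 6), followed by Cst3 at 972 ± 84.6 and Ctss at 852 ± 59.7, whose ranges now overlapped. Ctsb (548 ± 79.2) and Ctsd (490 ± 69.8) had exchanged places, as had Ctsc (416 ± 39.4) and Ctsz (354 ± 11.3 CPM per kb). The ranges of Ctsb and Ctsd overlapped in both groups, whereas those of Ctsc and Ctsz were apart in both. Ctsa, Ctsk and Ctsh kept the last places, at 115 ± 4.55, 110 ± 61.4 and 101 ± 11.4 CPM per kb. All neighbours among these 3 overlapped, and so did Ctsd and Ctsc.

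Summed over the 9 cathepsins, the level was 3288, 3831 and 3262 CPM per kb in vehicle tumors and 4645 to 5691 CPM per kb in BI tumors. All 6 BI tumors were above all vehicle tumors. Cystatin C kept pace with this sum: there were 19.8, 17.9 and 19.6 Cst3 transcripts per 100 cathepsin transcripts (per kb) in vehicle tumors and 19.1 to 19.6 in BI tumors. The means were 19.1 ± 1.05 and 19.3 ± 0.18, a difference of 0.246, and all 6 BI values lay within the vehicle range. This sum also counts Ctsa and Ctsd, which are not cysteine proteases. Single cathepsins did not all keep pace. Per kb and relative to Cst3, Ctss differed by 0.35 on the log2 scale, above the vehicle range in 6 of 6 BI tumors. Ctsz (-0.40) and Ctsa (-0.32) were under that range in 6 of 6. For the rest the ranges of the groups overlapped.

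The composition of the sum differed. Ctss made up 13.6%, 13.4% and 12.3% of it in vehicle tumors and 15.0% to 18.7% in BI tumors, without overlap. The shares of Ctsz (9.05% to 9.37% in vehicle, 6.46% to 7.79% in BI), Ctsa (2.76% to 2.99%, then 2.17% to 2.45%) and Ctsd (10.7% to 12.0%, then 8.89% to 10.6%) were lower in all 6 BI tumors. Ctsl, the largest single part, held 42.1% ± 1.67 (SD, n = 3) in vehicle and 40.4% ± 3.25 (SD, n = 6) in BI tumors, which is within the spread. Shares of 1 sum depend on each other, and no test was run on them.

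**Figure D4:**
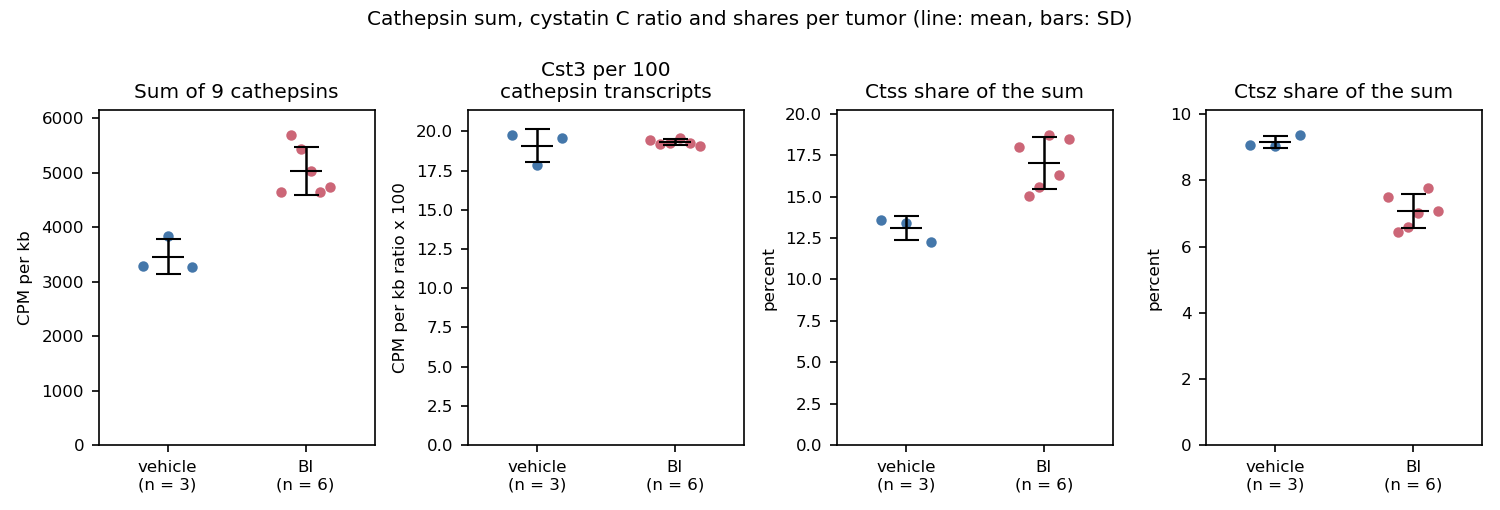
From left to right, the sum of 9 cathepsins (CPM per kb), Cst3 per 100 cathepsin transcripts, and the shares of Ctss and Ctsz in the sum (percent), for 3 vehicle and 6 BI tumors with mean and SD on axes that start at 0. The sum and the Ctss share are higher in all 6 BI tumors, the Ctsz share is lower in all 6, and the Cst3 ratio stays between 17.9 and 19.8 in all 9 tumors.

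Since macrophage markers moved with treatment, each member was also expressed relative to the mean log2 CPM of the 15 macrophage markers, which was 7.32 ± 0.13 (SD, n = 3) in vehicle and 8.11 ± 0.08 (SD, n = 6) in BI tumors. Relative to that mean, Ctsz was lower by 0.63, Ctsa by 0.55, Ctsd by 0.46, Ctsb by 0.28 and Cst3 by 0.23 on the log2 scale in BI than in vehicle tumors, each in 6 of 6 tumors. Ctsl was lower by 0.31, with 4 of 6 tumors under the vehicle range. Ctss was higher by 0.12 in 6 of 6 tumors, whereas Ctsc (0.08) and Ctsh (-0.00) differed by less than their spread. Without Lyz2, the most abundant of the markers, Ctsb was under the vehicle range in 5 of 6 tumors and Ctss above it in 5 of 6. Centred within groups, Ctss correlated with the macrophage marker mean at r = 0.90 and Ctsc at -0.00 (n = 9, described without a p).

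Other genes of the pathway were counted in lists. Of all genes tested, 14.6% were higher and 14.1% lower at the adjusted p, the shares to set beside each list. Under the cutoffs of the study the shares were 9.59% and 3.57%. Of the other cathepsins and legumain, 11 of 16 genes are in the table and 7 were tested, of which 6 were higher and 1 lower in edgeR's test, with a median log2 fold change of 0.80. Lgmn, the asparaginyl endopeptidase that processes cathepsins, had 615 ± 65.6 (SD, n = 3) and 1070 ± 87.2 CPM (SD, n = 6), and Ctsf 3.20 ± 0.160 and 6.32 ± 0.560 CPM. Tinagl1, a matrix protein related in sequence to cathepsin B, fell from 143 to 90.9 CPM, and this call was lost when any 1 vehicle tumor was left out (0 lower).

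Cystatins other than Cst3 were few and mixed. Of 18 genes, 14 are in the table and 6 were tested, of which 2 were higher and 2 lower, with a median log2 fold change of -0.37. Cst7, the cystatin F of immune cells, rose from 4.96 ± 0.0835 (SD, n = 3) to 10.5 ± 1.01 CPM (SD, n = 6), with an adjusted p of 5.9e-05 in edgeR's test. Fetub rose from 0.751 to 1.42 CPM. The stefin genes Stfa2l1 (14.4 to 7.17 CPM) and Stfa2 (4.98 to 2.84 CPM) fell, and as near-identical copies they may share reads. The neutrophil markers S100a9 and Retnlg fell in the same tumors, with log2 fold changes of -1.30 and -1.43. Cstb, the most abundant, had 174 and 169 CPM (adjusted p 0.733 in edgeR's test). Without the filter on low counts 1 cystatin was higher, and when 1 tumor was left out 1 to 2 were higher and 1 to 2 lower.

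Genes that carry enzymes to the lysosome differed by small amounts. Of 18 such genes, 6 were higher and 0 lower, with a median log2 fold change of 0.17. Nagpa, which exposes the mannose 6-phosphate tag, rose from 21.8 to 30.2 CPM, and Tfeb, the regulator of lysosomal genes, from 9.32 to 14.7 CPM. The receptor Igf2r had 607 and 540 CPM (adjusted p 0.348 in edgeR's test). The number higher was 2 without vehicle replicate 1 or 3, 3 without vehicle replicate 2, and 3 under the cutoffs of the study.

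Among 37 other lysosomal hydrolases and their activators, 20 were higher and 0 lower, with a median log2 fold change of 0.25, under that of the members (0.54). Psap, the precursor of the saposins, rose from 1995 ± 52.5 (SD, n = 3) to 3124 ± 370 CPM (SD, n = 6), Man2b1 (acid mannosidase) from 145 to 246 CPM and Hexa from 123 to 191 CPM. Under the cutoffs of the study 4 of the 37 were higher, where 9.59% of all genes tested were. Of 17 lysosomal membrane proteins 8 were higher and 1 lower (median 0.21), with Laptm5 of hematopoietic cells rising from 248 to 420 CPM, the cholesterol carrier Npc1 from 51.0 to 70.6 CPM and Lamp1 from 667 to 838 CPM. Cd63 fell from 360 to 302 CPM. Without vehicle replicate 1 or 2 there were 5 higher, and without vehicle replicate 2 or 3 there were 0 lower. The cutoffs of the study gave 2 higher and 0 lower, against 9.59% and 3.57% of all genes tested.

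Of the V-ATPase, the pump that acidifies lysosomes, 22 of 25 subunit genes were tested, and 8 were higher and 0 lower (median 0.17). Atp6v0b rose from 114 to 139 CPM and Atp6v0d1 from 75.7 to 97.5 CPM, and Atp6ap1 had 228 and 261 CPM (adjusted p 0.0581 in edgeR's test). The number was 4 without vehicle replicate 3 and 1 under the cutoffs of the study, where 9.59% of all genes tested were higher. That 1 was Atp6v1b1.

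Larger differences were seen in the 2 lists set beside cathepsins S and C. Some cell type markers also had large median log2 fold changes: T and NK cells 1.125, mast cells 1.03, adipocytes 1.005, dendritic cells 0.99, macrophages 0.90 and B cells 0.81. Of the 6 adipocyte markers only 1 was higher in edgeR's test. Others had smaller ones, such as endothelial cells (0.38), or a negative one (neutrophils, -0.60). The part of such cells in the lists below was not tested. Of 11 genes of the invariant chain and MHC class II loading, 10 were higher and 0 lower, with a median log2 fold change of 0.99. Cd74, the invariant chain that cathepsin S trims, rose from 920 ± 123 (SD, n = 3) to 1951 ± 387 CPM (SD, n = 6). H2-Ab1 rose from 289 to 692 CPM, and the lysosomal thiol reductase Ifi30 from 131 to 214 CPM. Of 10 granule serine proteases listed for cathepsin C, mast cell tryptases included, 7 were higher and 0 lower, with a median of 1.40. Which of them depend on cathepsin C was not tested. Gzmb, granzyme B of cytotoxic lymphocytes, rose from 26.7 ± 5.00 to 71.2 ± 12.0 CPM, and Cma1, a mast cell chymase, from 3.67 ± 1.66 to 30.8 ± 22.8 CPM. The mast cell marker Cpa3 rose with Cma1, from 4.94 ± 2.33 to 37.0 ± 27.4 CPM, and its part in the count of this list was not tested. The neutrophil proteases Elane (0.556 and 0.588 CPM) and Prtn3 (1.93 and 2.10 CPM) had adjusted p values of 0.975 and 0.824 in edgeR's test. Ctsg belongs both to this list and to the other cathepsins.

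**Figure D5:**
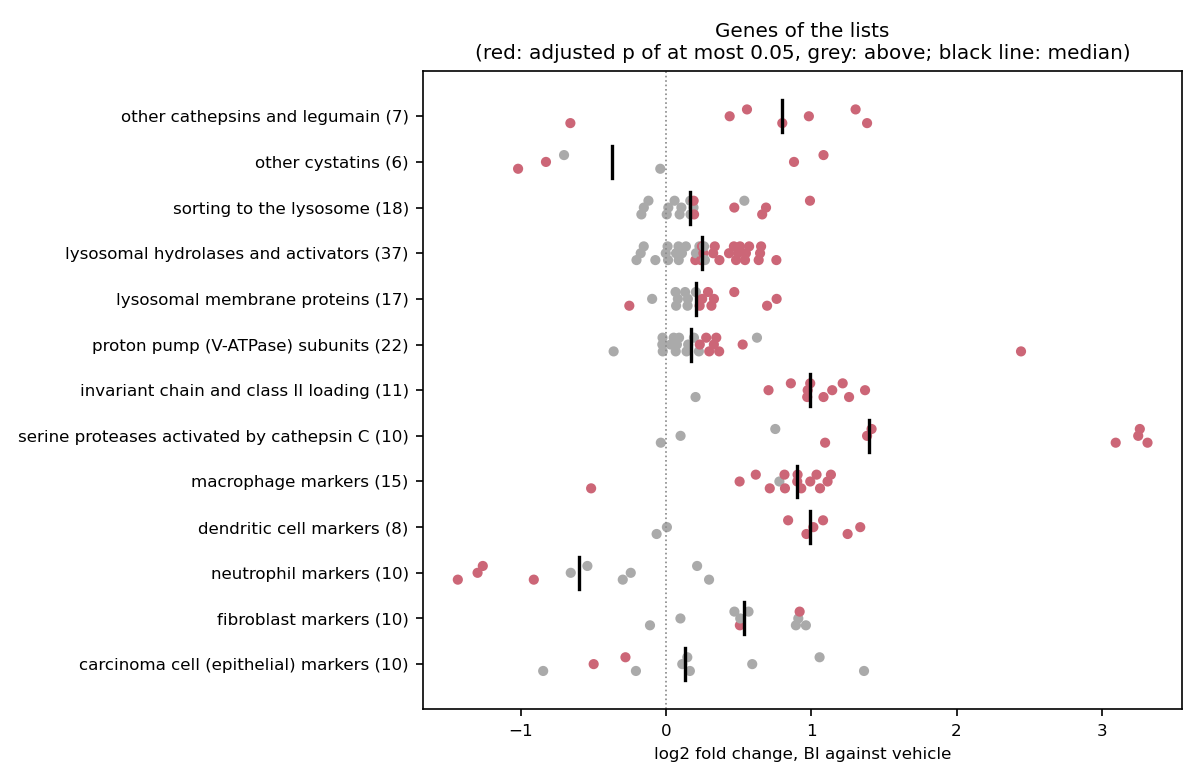
Log2 fold changes of BI against vehicle of the genes in 13 lists (numbers tested in brackets), red where the adjusted p (edgeR) was at most 0.05 and grey above, with each list's median as a black line. The serine proteases listed for cathepsin C have the highest median, 1.40. Class II loading and the dendritic cell markers have 0.99, and the sorting, membrane and proton pump genes have medians of 0.17 to 0.21.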

How the data were processed

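Total RNA of 9 4T1 primary tumors was measured by stranded messenger RNA sequencing. The authors aligned the read pairs to mm9 with STAR, kept uniquely aligned reads, and deposited raw counts of reads starting in RefSeq exons for 18755 genes, counted with QuasR. Whether strand and both mates were used is not given in the sources used here. The gene lengths used for CPM per kb are a deposited column. Of the identifiers, 18700 matched a RefSeq symbol. Member positions are those of GENCODE M1 on mm9, and promoters are from RefSeq on GRCm38.p6, so their coordinates are not interchangeable.

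Groups came from the labels (3 vehicle, 6 BI). The counts were fitted with edgeR 4.0.16 in R 4.3.3 (TMM, filterByExpr requiring 10 counts and a total of 15, quasi-likelihood F test without covariates), and genes were called where p, adjusted by Benjamini-Hochberg across the genes tested, was 0.05 or less. The cutoffs of the study were a second rule. Log2 CPM used a prior count of 2. Single members were also compared by an exact permutation test (scipy 1.17.1). The fit was tested on simulated data. The 10 members, the gene lists and the rule for genes named were chosen with earlier results of these data known. The rule names all members, for each list the 2 genes of smallest p in each direction among those called and the most abundant gene, for each member the 3 most similar genes, and markers or list genes that a sentence turns on. Not every gene that this rule selects is reported here. The alternatives were RLE or library size scaling, other filters, edgeR's likelihood ratio test, DESeq2 1.42.0, limma-voom 3.58.1, CPM without length, a macrophage score without Lyz2, and leaving out each tumor. No covariate or batch was given in the labels.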

Additional observations from a re-analysis of the deposited data

How the results depend on the processing

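No result changed direction, and all 10 members had positive log2 fold changes under every alternative. When 1 tumor was left out, 4 to 9 members were higher, and the cutoffs of the study gave 3 against 7. DESeq2 placed 9 members higher, adding Ctsd (adjusted p 0.0268) and Ctsz (0.0223), and edgeR's likelihood ratio test added Ctsd (0.0417). Ctss, Ctsc, Ctsh and Cst3 passed at an adjusted p of 0.05 under each alternative test, filter, scaling and omission. Leaving out 1 tumor gave 4 to 6 other cathepsins higher and 0 to 1 lower, 1 to 2 other cystatins higher and 1 to 2 lower, 2 to 6 sorting genes, 15 to 21 hydrolases, 5 to 8 membrane proteins (0 to 1 lower), 4 to 9 V-ATPase subunits, 9 to 10 class II loading genes and 5 to 8 serine proteases higher. The cutoffs of the study gave 3 sorting genes, 4 hydrolases, 2 membrane proteins (0 lower) and 1 V-ATPase subunit higher, which follows from their 1.5-fold limit. Without the filter on low counts 1 other cystatin was higher, and the cause was not tested. By CPM without length 5 of 10 members kept their rank, and Cst3, the shortest gene model, stood sixth instead of second. Without Lyz2, 4 members instead of 5 lay under the vehicle range of the macrophage score in 6 of 6 tumors. No paired analysis was possible because the groups share no replicate numbers. None of 12 groups of BI values had an outlying tumor (0 of 12). The rule was not applied to groups of 3, so the vehicle tumors were not checked for outliers. At these depths counting error was small for the members, and the 3 vehicle tumors limit the precision.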
